A study of Danio rerio with 4 samples.

Results

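The genes described here are those encoding histones H3 and H4 in whole zebrafish embryos at the 6-somite stage. They were taken by annotation: every row of the deposited gene table whose UniProt description begins with Histone H3 or Histone H4, which gave 65 of 24235 rows. One of these, hinfp, encodes a factor that regulates H4 genes and not a histone, and it was kept out of every sum. The other 64 rows comprised 26 described as Histone H3 or Histone H3.2, called replication-type H3 below, 5 described as Histone H3.3, and 33 described as Histone H4. The groups were AB embryos labelled wild type (2 libraries) and npas4l bns297/bns297 embryos (2 libraries), both kept in E3 medium at 1 temperature, with no treatment named in the labels. The mutants are homozygous for the bns297 allele of npas4l, which encodes a bHLH-PAS transcription factor that endothelial and blood development depends on. The labels do not describe the lesion, the number of embryos per library, the clutches or the background strain of the mutants, and the npas4l row itself is not analysed here.

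H3 and H4 pair with each other, and tetramers of them form the centre of the nucleosome, around which DNA is wrapped. Replication-type H3 and H4 genes lie in multicopy arrays together with H2A and H2B genes, lack introns and are transcribed mostly in S phase. Their mRNAs end in a stem-loop and not in a poly(A) tail. H3.3 differs from replication-type H3 at a few residues, is made throughout the cell cycle from genes with introns and polyadenylated mRNAs, and is placed into chromatin outside replication. Early embryos divide fast, so they need histone mRNA in large amounts. Random priming of total RNA, as used in these libraries, captures mRNAs with and without a poly(A) tail.

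All values below are the authors' deposited normalised values, whole numbers that behave as gene counts divided by a factor of each library. They summed to between 7272902 and 8237748 per library, and the spacing of the whole numbers put 1 read at 0.898 to 1.09 units. The H3 and H4 rows together made up 0.526% and 0.512% of all summed values in the wild-type libraries, against 0.473% and 0.479% in the mutant libraries. Mutant replicate 2 was unlike the other 3 libraries, with 299 genes listed at 0 against 2444 to 3000. Among genes whose mean value was 100 or more, its median difference from the wild-type mean was -0.14 on the log2(value + 1) scale, against 0.02 for mutant replicate 1. The genotype labels were checked with tal1, a blood regulator, at 166 and 163 in wild type, against 13 and 8 in mutants. Because RNA came from whole embryos, fewer cells in cycle and less histone mRNA per cell cannot be told apart.

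For replication-type H3 and for H4, each mutant library had a lower summed value than either wild-type library, and the gap was wider for H4. H4 summed to 17119 and 16730 in wild type, against 14906 and 13485 in mutants. The means were 16924.5 ± 275 for wild type and 14195.5 ± 1005 for mutants, 83.9% of wild type (errors are SD over n = 2 libraries, here and below). Replication-type H3 summed to 14790 and 14784 in wild type, against 13663 and 12692 in mutants. That is 14787 ± 4.24 against 13177.5 ± 687, or 89.1% of wild type. Set against the wild-type mean, H4 was at -0.18 in mutant replicate 1 and -0.33 in mutant replicate 2 on the log2 scale, and replication-type H3 at -0.11 and -0.22, so the order of groups did not rest on the second library. With 2 libraries against 2, the smallest two-sided p of an exact permutation test is 0.333, so no p is given for these sums.

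For H3.3 the groups overlapped. Set against the wild-type mean on the log2 scale, H3.3 was at 0.05 in mutant replicate 1, where replication-type H3 was at -0.11. In mutant replicate 2 H3.3 was at -0.20, close to the -0.22 of replication-type H3. Its 5 rows summed to 10052 and 9929 in wild type, against 10362 and 8678 in mutants, and mutant replicate 1 was the highest of the 4 libraries and mutant replicate 2 the lowest. The mean was 9990.5 ± 87.0 in wild type and 9520 ± 1191 in mutants, 95.3% of wild type. H3.3 made up 40.5% and 40.2% of the summed H3 values in wild type, against 43.1% and 40.6% in mutants. Whether H3.3 and replication-type H3 differ in their response was not tested. The summed H4 value per summed replication-type H3 value was 1.16 and 1.13 in wild type, against 1.09 and 1.06 in mutants, without overlap. These ratios are of normalised values that were not divided by gene length.

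The other nucleosomal histones are the closest comparison. H2B, summed over 34 rows, stood at 85.8% of wild type in mutants, with both mutant libraries (28550 and 25939) below both wild-type libraries (31956 and 31576). H2A, over 36 rows described as Histone H2A or Histone H2AX, stood at 92.8%, with 27226 and 27192 in wild type, against 26947 and 23539 in mutants. H1, over 3 rows, stood at 95.9% and its groups overlapped. No test of a difference between histone classes was made, so the values are not called particular to H3 and H4.

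**Figure D1:**
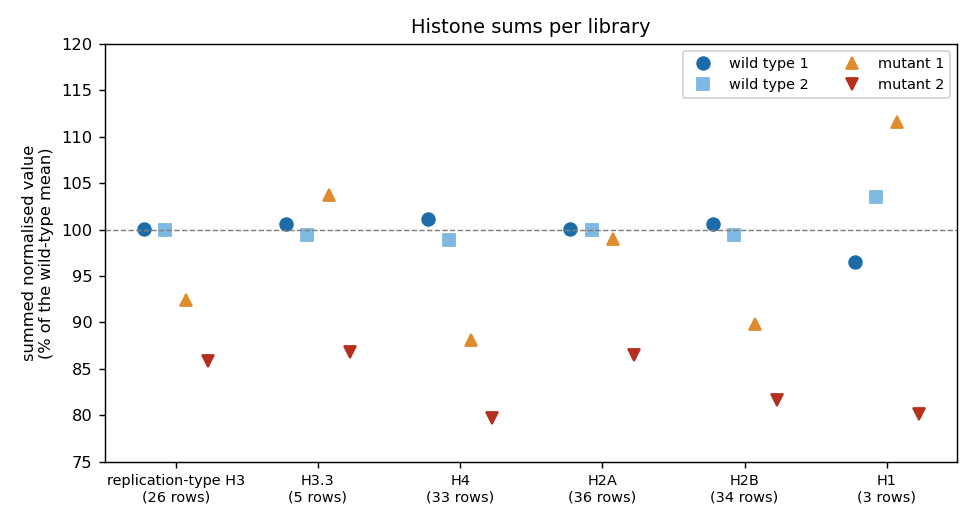
Summed normalised value of each histone class in each library, as a percentage of the wild-type mean of that class (vertical axis cut to the range of the data and not starting at 0; points are single libraries). Both mutant libraries lie below both wild-type libraries for replication-type H3, H4, H2A and H2B. For H2A this is by little in mutant replicate 1, at -0.01 from the wild-type mean on the log2 scale, against -0.21 in mutant replicate 2. For H3.3 and H1 mutant replicate 1 lies highest and mutant replicate 2 lowest.

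Since the sums depend on how libraries are scaled, they were also taken relative to library totals from which genes of mitochondria, ribosomal RNA and haemoglobin had been left out. On that scale the log2 ratio of mutant to wild type was -0.20 for H4 and -0.11 for replication-type H3, against -0.25 and -0.17 as deposited, and the groups still did not overlap. It was -0.02 for H3.3, against -0.07.

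Gene by gene, no H3 or H4 row passed the test. The test was limma-trend on log2(value + 1) over the 16653 genes averaging 10 or more, at a Benjamini-Hochberg adjusted p under 0.05, and 63 of the 64 histone rows could be tested. It called 0 of the 63 in either direction, where 0.042% of all genes tested were called lower and 0.006% higher. The lowest adjusted p among the 63 rows was 0.125. The median SE of a single row's log2 fold change was 0.16. limma-voom also called 0 of them, with 19 lower and 2 higher at an unadjusted p under 0.05, where 1.5% of all genes were lower and 1.68% higher in that fit.

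At an unadjusted p under 0.05, 18 of the 63 rows were lower in mutants and 0 were higher. These 18 were 28.6% of the rows, against 1.91% of all genes tested (1.84% higher) and 2.81% of genes averaging 100 or more (0.813% higher). H4 held 14 of the 18 and replication-type H3 held 4, which were 43.8% and 15.4% of their tested rows. H3.3 held 0 of 5. The count moved with each library left out, in fits where 1 group is a single library that is assumed to vary like the other pair. It was 8 of 62 without wild-type replicate 1 (0.641% of all genes lower in that fit) and 9 without wild-type replicate 2 (0.970%). It was 22 without mutant replicate 1 (8.83%) and 10 without mutant replicate 2 (1.74%). Higher rows numbered 0 in the first 3 of these fits and 3 in the last, where 1.79% of all genes were higher. All 63 rows averaged 100 or more, so genes at that level are the closer background, though not one matched in level. Those genes had a median mean value of 295, against 457 over the 63 rows. The rows share sequence, and the way the authors' counting treated reads that match several copies is not stated in the sources used, so the rows are not independent of each other and each single value is uncertain.

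In 42 of the 63 rows both mutant libraries were below both wild-type libraries, and in 3 both were above. These were 66.7% and 4.76% of the rows. Over all genes tested the shares were 16.1% lower and 13.3% higher, and over genes averaging 100 or more they were 22.4% lower and 7.55% higher. By class, 24 of 32 tested H4 rows, 17 of 26 replication-type H3 rows and 1 of 5 H3.3 rows were lower in both mutant libraries. On the alternative scale above, the number lower in both was 35, 12 of them replication-type H3 and 22 H4, against 13.5% of all genes and 18.2% of those averaging 100 or more. On that scale 4 rows were higher in both, counting the untested row, 1 of them replication-type H3 and 2 H4. The shares higher in both were 18.3% of all genes and 15.1% of those averaging 100 or more. The balance of directions over all genes thus moved with the scaling.

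The median log2 fold change was -0.26 over H4, -0.15 over replication-type H3 and -0.04 over H3.3, where genes averaging 100 or more had a median of -0.06. H4 ranged from -0.74 to 0.18 and replication-type H3 from -0.58 to 0.30. Wild-type replicates differed little in these rows: the median absolute log2 difference between them was 0.08, against 0.13 over genes averaging 100 or more. The mutant replicates differed by 0.13 in the median row and the group means by 0.20. Over genes averaging 100 or more these medians were 0.20 and 0.11. Taken one at a time, the median row was at -0.16 in mutant replicate 1 and at -0.23 in mutant replicate 2.

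**Figure D2:**
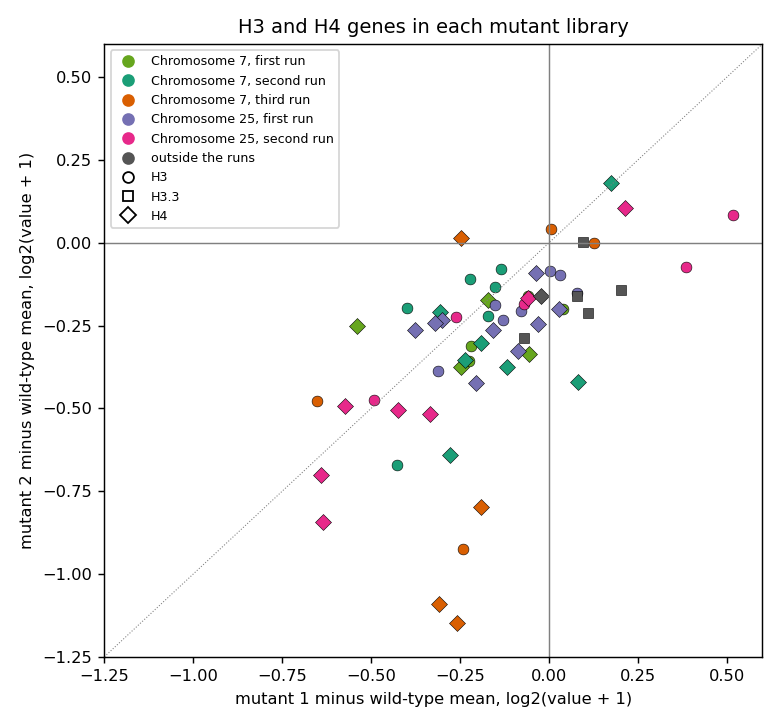
Each point is 1 of the 63 tested H3, H3.3 or H4 rows, placed by its difference from the wild-type mean in mutant replicate 1 (horizontal) and in mutant replicate 2 (vertical), both on the log2(value + 1) scale; colours mark the gene run and shapes the histone, and the dotted line marks equal values. Most points lie to the lower left of the origin, and 4 rows of the third run on chromosome 7 lie far below the dotted line, between -1.15 and -0.80 in mutant replicate 2.

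Of the 59 replication-type H3 and H4 rows, 58 lay in 5 runs of histone genes, in which neighbouring starts were within 100 kb. Coordinates are those of the deposited table (GRCz10). On chromosome 7 the first run spanned 5782373 to 5943678 and held 4 H3 and 4 H4 rows, the second spanned 6204800 to 6332794 with 6 H3 and 8 H4 rows, and the third spanned 73590418 to 73636124 with 4 of each. On chromosome 25 the first run spanned 34509159 to 34647269 with 7 H3 and 9 H4 rows, and the second spanned 35760531 to 35820573 with 5 H3 and 7 H4 rows. Every run also held 3 to 11 rows each of H2A and H2B. zgc:153409, an H4 row on chromosome 5, was the only replication-type row outside the runs. It stood at 432 and 413 in wild type, against 416 and 378 in mutants, groups that overlapped.

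H4 sums were lower in both mutant libraries in every run. H2B sums were too, at 79.8%, 87.8% and 87.9% of wild type along chromosome 7 and 87.4% and 83.3% along chromosome 25. H2A sums were higher in both in the third run on chromosome 7 (102.3%) and overlapped in the second on chromosome 25 (92.2%). In the other runs H2A sums were lower in both. Of single genes averaging 100 or more, 22.4% were lower in both. H4 of the first run on chromosome 7 summed to 2247 and 2282 in wild type, against 1944 and 1917 in mutants, 85.3% of wild type. The second run summed to 3479 and 3432 against 3094 and 2705, 83.9% of wild type. The first run on chromosome 25 summed to 4786 and 4576 against 4199 and 3889, or 86.4%. These 3 runs and the second run on chromosome 25, at 84.3%, had similar ratios, and whether they differ was not tested.

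The third run on chromosome 7 was at 74.8%, with 2359 and 2214 in wild type, against 1932 and 1489 in mutants. Its H4 sums differed more between the mutant libraries, on the log2 scale, than those of the other 4 runs. In the second run on chromosome 25 the H4 sums were 3816 and 3813 in wild type, against 3321 and 3107 in mutants, 84.3% of wild type.

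H3 sums by run followed the same order of groups in 4 of the 5 runs. Of single genes averaging 100 or more, 22.4% had that order. The H3 sums stood at 88.1% and 87.1% of wild type in the first and second runs on chromosome 7. They stood at 81.2% in the third, and at 91.0% in the first run on chromosome 25. The exception was the second run on chromosome 25, with 1139 and 1222 in wild type, against 1293 and 1074 in mutants, 100.3% of wild type. There the H3 groups overlapped while the H4 groups did not. The first run on chromosome 25 gave 27.4% to 28.8% of the summed H4 and 40.7% to 41.7% of the summed replication-type H3 in the 4 libraries. The share of H4 from the third run on chromosome 7 was 13.8% and 13.2% in wild type, against 12.96% and 11.04% in mutants.

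**Figure D3:**
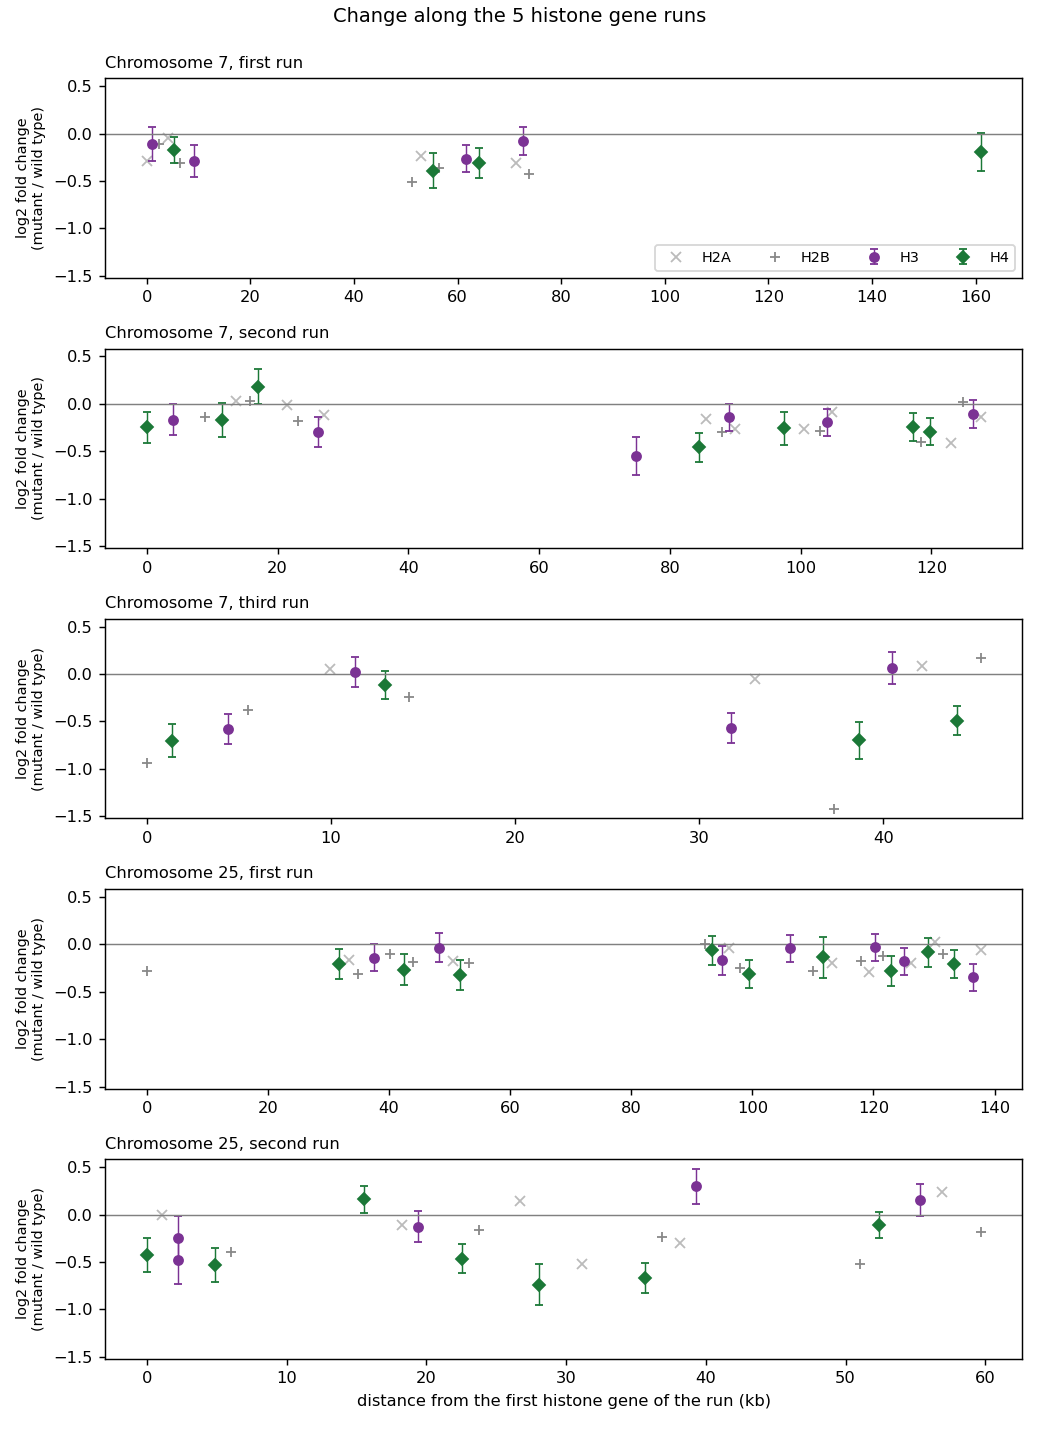
log2 fold change of mutants against wild type (vertical, log2(value + 1) scale) for every tested histone row of the 5 runs, by distance in kb from the first histone gene of the run; bars on H3 and H4 are 1 SE from limma, and H2A and H2B are drawn without bars. The H3 and H4 rows of the first run on chromosome 25 stay between -0.35 and -0.03, while the third run on chromosome 7 and the second run on chromosome 25 mix rows near -0.7 with rows above 0.

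In the second run on chromosome 25, 5 of the 7 H4 rows were lower in both mutant libraries at an unadjusted p under 0.05. Of genes averaging 100 or more, 2.81% were lower at that threshold. zgc:163040 (ENSDARG00000070285, 35796148 to 35796459, plus strand) stood at 503 and 502 in wild type, against 322 and 309 in mutants. This is -0.67 ± 0.16 (SE) as a log2 fold change, and the adjusted p from limma, 0.125, was the lowest of all members. It did not pass the test as fixed, but did when only genes averaging 50 or more were tested (adjusted p of 0.0310) and on the alternative scale (0.0139). Across the alternatives this p ran from 0.00327, without mutant replicate 1 and so with a single mutant library, up to 1, and its log2 fold change from -0.70 to -0.61.

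4 further H4 rows of this run, all with the symbol hist1h4l, had both mutant libraries well below both wild-type libraries. ENSDARG00000089684 (35788570 to 35788881, plus strand) stood at 184 and 213 in wild type, against 127 and 110 in mutants, which gives a log2 fold change of -0.74 ± 0.21, the lowest of all members. ENSDARG00000091011 (35765408 to 35765719, plus strand) stood at 281 and 285 against 190 and 201, and ENSDARG00000089044 (35783063 to 35783374, plus strand) at 647 and 624 against 473 and 447. ENSDARG00000089823 (35760531 to 35760842, minus strand) stood at 304 and 270 against 227 and 200. Their log2 fold changes were -0.53 ± 0.18, -0.47 ± 0.15 and -0.43 ± 0.18. In these 4 rows and zgc:163040, mutant replicate 2 was at 86.6% to 106% of mutant replicate 1, so the mutant libraries were close to each other.

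The other 2 H4 rows of the run had smaller differences, and whether they differ from the 5 was not tested. hist1h4l row ENSDARG00000087472 (35776074 to 35776385, plus strand), between 2 of the rows above, stood at 768 and 751 in wild type, against 880 and 817 in mutants, higher in both, with a log2 fold change of 0.16 ± 0.14. ENSDARG00000087236 (35812928 to 35813239, minus strand), with the highest value per length of all members at 3543 per kb, stood at 1129 and 1168 against 1102 and 1023, lower in both, with a log2 fold change of -0.11 ± 0.14. Neither passed the test.

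The H3 rows of this run were also mixed. zgc:173552 row ENSDARG00000070287 (35799855 to 35800265, plus strand), the next H3 row past zgc:163040, stood at 227 and 209 in wild type, against 312 and 231 in mutants. The log2 fold change of 0.30 ± 0.18 was the highest of all members. zgc:173552 row ENSDARG00000096596 stood at 289 and 361 against 422 and 307, with overlapping groups. CR354435.8 stood at 130 and 124 against 90 and 91. The last shares its start with zgc:173552 row ENSDARG00000070282 (35762740 to 35795263), which stood at 138 and 138 against 115 and 118 and whose span overlaps 13 other rows of the table. That span also covers the H4 rows ENSDARG00000091011, ENSDARG00000087472, ENSDARG00000089044 and ENSDARG00000089684 described above. Reads of all these rows may have been shared or dropped in counting.

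In 4 rows of the third run on chromosome 7, mutant replicate 2 had far lower values than mutant replicate 1. hist1h4l row ENSDARG00000101114 (73591787 to 73592098, minus strand) stood at 625 and 466 in wild type, against 451 and 243 in mutant replicates 1 and 2. Its log2 fold change was -0.70 ± 0.17 with an adjusted p of 0.199 (0.0124 to 0.0447 in the 4 alternatives that kept all libraries and called it, and 4.17e-09 to 1 across the alternatives). hist1h4l row ENSDARG00000088420 (73629119 to 73629430, minus strand) stood at 283 and 282 against 228 and 132, and ENSDARG00000086555 (73634440 to 73634751, plus strand) at 860 and 778 against 716 and 470. The H3 row zgc:173552 ENSDARG00000091770 (73594851 to 73595261, plus strand) stood at 646 and 680 against 560 and 349.

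In these 4 rows mutant replicate 2 was at 53.9% to 65.6% of mutant replicate 1, a gap larger than that between mutant replicate 1 and wild type in each. Without mutant replicate 2 their log2 fold changes were -0.26, -0.31, -0.19 and -0.24 in the order given. Without mutant replicate 1 they were -1.15, -1.09, -0.80 and -0.92. limma's SE, which rests mostly on other genes, reflects little of this gap. Without mutant replicate 1, 9 of the 62 rows tested were called lower, these 4 and zgc:163040 among them, in a fit that called 1.52% of all genes lower and took its spread from the wild-type pair and other genes.

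**Figure D4:**
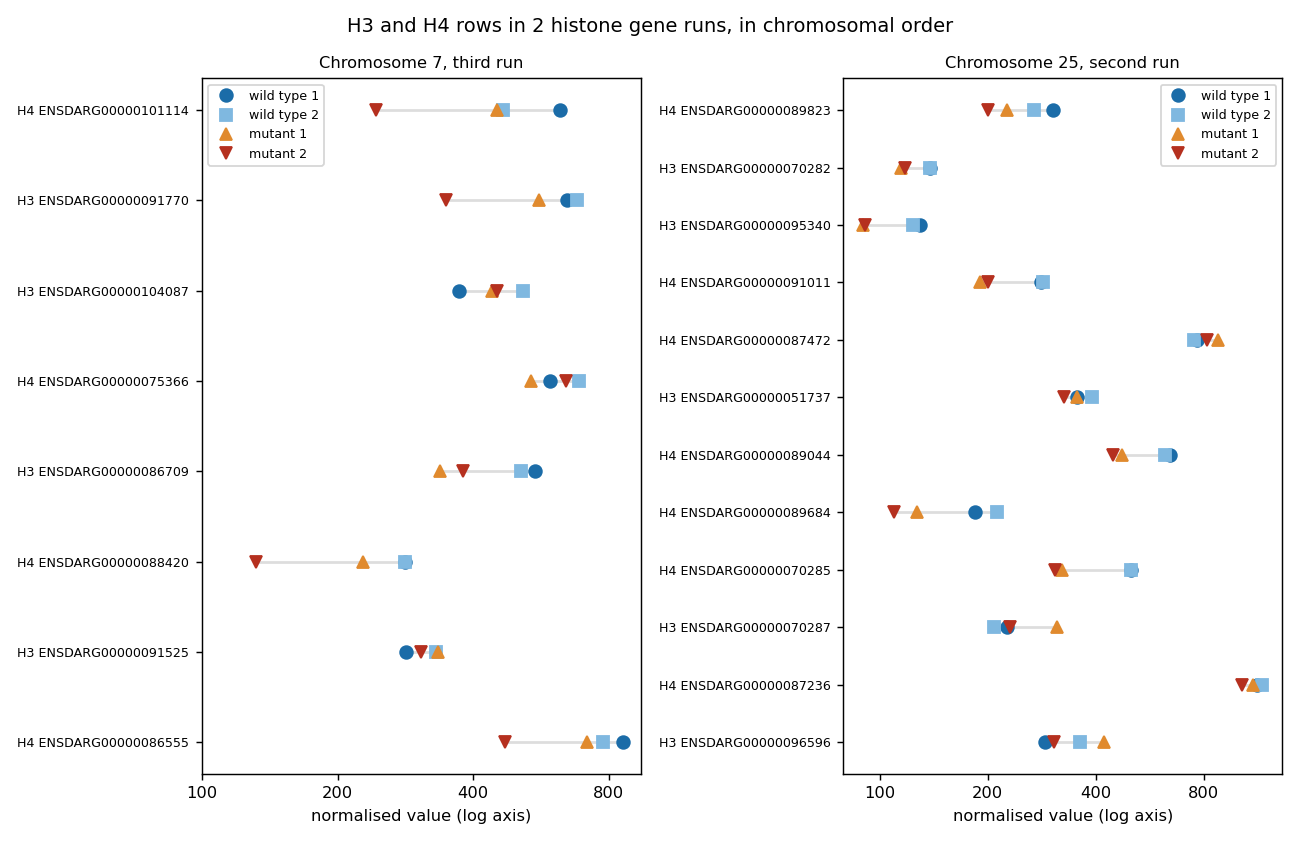
Normalised values (log axis) of the H3 and H4 rows of the third run on chromosome 7 (left) and the second run on chromosome 25 (right), in chromosomal order from the top, with 1 point per library. On the left, mutant replicate 2 lies apart from the other 3 libraries in the 4 rows named above; on the right, the mutant libraries lie close together in the H4 rows, below wild type in most of them and above it in ENSDARG00000087472.

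Of the H2B genes next to these rows, 2 passed the main test, among the 7 genes called lower in all. FP236812.8, an H2B gene from 73590418 next to ENSDARG00000101114, was at 418 and 418 in wild type, against 334 and 142 in mutant replicates 1 and 2, a log2 fold change of -0.94 ± 0.19 (adjusted p of 0.0135). FP236812.4, an H2B gene from 73627742 next to ENSDARG00000088420, was at 411 and 445, then 244 and 103, or -1.43 ± 0.20 (adjusted p of 1.62e-06). In both, mutant replicate 2 was far below mutant replicate 1. FP236812.7, an H2B gene from 73595914 next to ENSDARG00000091770, was at 374 and 470, then 360 and 290, and did not pass. FP236812.6, an H2B gene from 73635711 next to ENSDARG00000086555, was at 1748 and 1775, then 2022 and 1954, higher in both without passing. The 3 H2A rows of the run summed to 1945 and 1908 in wild type, against 1990 and 1951 in mutants.

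The remaining H3 and H4 rows of that run did not show the gap. zgc:173552 row ENSDARG00000086709 (73622162 to 73622572, minus strand) stood at 548 and 512 in wild type, against 337 and 380 in mutants, which gives a log2 fold change of -0.56 ± 0.16. Without mutant replicate 2 it was at -0.65 with an adjusted p of 0.0387, in a fit whose mutant group is 1 library, so that the spread comes from the wild-type pair and other genes. This p ran up to 1 across the alternatives. hist1h4l row ENSDARG00000075366 stood at 591 and 688 against 537 and 644, and zgc:173552 rows ENSDARG00000104087 and ENSDARG00000091525 stood at 372 and 517 against 440 and 451 and at 284 and 330 against 334 and 306. The groups of these last 3 overlapped.

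In the first and second runs on chromosome 7, 2 of 8 and 3 of 13 tested H3 and H4 rows were lower at an unadjusted p under 0.05. The share over genes averaging 100 or more was 2.81%. Among H4, hist1h4l row ENSDARG00000105376 (6289313 to 6289732, minus strand) stood at 685 and 680 in wild type, against 563 and 437 in mutants, which gives a log2 fold change of -0.46 ± 0.15. ENSDARG00000105409 stood at 821 and 795 against 686 and 632, ENSDARG00000101249 at 252 and 300 against 189 and 231, and ENSDARG00000099920 at 509 and 518 against 432 and 396. Their log2 fold changes were -0.29 ± 0.14, -0.39 ± 0.18 and -0.31 ± 0.16. zgc:154164, another H4 row, stood at 720 and 732 against 669 and 559.

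2 H4 rows of the second run went the other way. ENSDARG00000105318 stood at 199 and 246 in wild type, against 250 and 251 in mutants, which gives a log2 fold change of 0.18 ± 0.18. si:ch73-368j24.1 was listed at 0 and 1 in wild type, against 3 and 6 in mutants; it was the 1 histone row below the minimum mean value and was not tested. The H4 row with the highest mean value, not divided by length, was ENSDARG00000105352 (5787624 to 5788029, plus strand), at 1271 and 1288 against 1136 and 1136, -0.17 ± 0.14.

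Among the H3 rows of these runs CU457819.3 (6279684 to 6280174, minus strand) had the lowest value, -0.55 ± 0.20, from 235 and 198 in wild type to 160 and 135 in mutants. CU459186.4 stood at 907 and 873 against 764 and 717 and FP325123.5 at 788 and 866 against 734 and 708, both without overlap. si:dkey-23a13.21 stood at 796 and 743 against 791 and 670, with overlap. All 6 H3 rows of the second run were lower in both mutant libraries, by -0.11 to -0.55. Of genes averaging 100 or more, 22.4% were lower in both.

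The first run on chromosome 25 held the largest H3 sum of the 5 runs. Its 16 H3 and H4 rows all had a log2 fold change below 0 as deposited, between -0.35 and -0.03. Among genes averaging 100 or more, 5233 of 7872 had a log2 fold change below 0. Of the 16 rows, 11 were lower in both mutant libraries, against 22.4% of genes averaging 100 or more. HIST2H3PS2 (ENSDARG00000077587, 34645565 to 34645975, minus strand), an H3.2 row, was the lowest at -0.35 ± 0.14, from 1028 and 1165 to 882 and 837. CR762436.2, the replication-type H3 row with the highest value per kb, stood at 1253 and 1200 against 1252 and 1147, and FQ312024.2 at 869 and 996 against 932 and 876. Both had overlapping groups, and their signs turned on the alternative scale, to 0.02 and 0.01.

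hist2h3c stood at 952 and 856 in wild type, against 855 and 782 in mutants, so that the groups nearly touched. CR762436.3 stood at 819 and 771 against 727 and 676. Among the H4 rows of this run, ENSDARG00000087670 stood at 849 and 805 against 717 and 616, HIST4H4 at 497 and 473 against 373 and 404, and ENSDARG00000091446 at 782 and 785 against 738 and 625. ENSDARG00000089737 stood at 601 and 513 against 541 and 521, with overlap, and had a log2 fold change of -0.06 ± 0.15.

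Values per length varied widely among copies, where the handling of reads that match several copies is not stated in the sources used. Per kb of annotated span, the 25 replication-type H3 rows with spans from 411 to 1306 bases had mean values from 265 to 2951, and the 32 tested H4 rows had mean values from 394 to 3543. Many rows are annotated as the coding stretch alone, 12 H3 rows at 411 bases and 20 H4 rows at 312 bases, and whether reads from the flanking transcribed stretches were counted is not stated in the sources used.

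The 5 H3.3 rows all lay outside the runs, and 3 of them share the symbol h3f3b.1 in the table. h3f3b.1 row ENSDARG00000068436 (chromosome 15, 47263247 on) stood at 4206 and 4163 in wild type, against 3987 and 3430 in mutants, the 1 H3.3 gene without overlap, -0.18 ± 0.14. Without mutant replicate 1 it was at -0.29 with an adjusted p of 0.00525, in a fit that called 274 genes in all and whose mutant group is mutant replicate 2 alone. This p ran up to 1 in the other alternatives. Its neighbour h3f3b.1 row ENSDARG00000068434 stood at 437 and 439 against 463 and 392.

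h3f3b.1 row ENSDARG00000033009 on chromosome 5 stood at 1032 and 1050 against 1112 and 1043. h3f3a on chromosome 3 stood at 1852 and 1934 against 2177 and 1714, and h3f3d on chromosome 24 at 2525 and 2343 against 2623 and 2099. All 5 genes had mutant replicate 2 below mutant replicate 1, as did 5911 of the 7872 genes averaging 100 or more. The log2 fold changes of the 4 overlapping genes lay between -0.05 and 0.05, and the signs of ENSDARG00000068434 and h3f3d turned on the alternative scale, both to between 0 and 0.02.

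hinfp, a zinc-finger activator of H4 transcription in mammals, was at 77 and 47 in wild type, against 59 and 87 in mutants. Its groups overlapped, and its log2 fold change was 0.25 ± 0.32. Of the wider machinery for histone mRNA processing and for H3 and H4 assembly, 45 rows were tested and 0 passed, with 0 at an unadjusted p under 0.05 in either direction. Over all genes tested, 1.91% were lower and 1.84% higher at that threshold, and over genes averaging 100 or more 2.81% were lower and 0.813% higher. The median log2 fold change of the 45 rows was -0.05, from -0.31 to 1.11. It was -0.02 over all genes tested and -0.06 over those averaging 100 or more. sympk, the symplekin scaffold of histone mRNA 3' cleavage, was lower in both mutant libraries, at 710 and 756 against 673 and 570 (-0.24 ± 0.15), as was ctif, a factor for translation of capped mRNA, at 485 and 474 against 416 and 400 (-0.23 ± 0.16). upf1, an RNA helicase of mRNA decay, stood at 1103 and 1016 against 1028 and 861. ssrp1b, a subunit of the FACT chaperone, gave the highest value from low counts, 11 and 9 in wild type, against 9 and 55 in mutants.

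Genes of DNA replication were set beside the histones because replication-type histone mRNA is made in S phase. Of 48 tested rows 0 passed, while at an unadjusted p under 0.05 3 were higher in mutants and 0 lower. Over all genes tested, 1.84% were higher and 1.91% lower at that threshold. Over genes averaging 100 or more, 0.813% were higher and 2.81% lower. The log2 fold change was below 0 in 31 of the 48 rows and above 0 in 17. It was below 0 in 8777 of all 16653 genes tested and in 5233 of the 7872 averaging 100 or more. The median of the 48 rows was -0.05, against -0.02 over all genes tested and -0.06 over those averaging 100 or more. rrm2 row ENSDARG00000078069, a subunit of ribonucleotide reductase, stood at 91 and 98 in wild type, against 163 and 137 in mutants (0.66 ± 0.24). gins3, a part of the replicative helicase complex, stood at 73 and 92 against 128 and 124 (0.61 ± 0.25), and rpa3, a subunit of the single-stranded DNA binding complex, at 52 and 56 against 108 and 71 (0.69 ± 0.31). The second rrm2 row, ENSDARG00000020711, stood at 276 and 296 against 274 and 186. In both lists mutant replicate 2 was below mutant replicate 1 in most rows, 35 of 48 and 43 of 49. The same held for 8938 of all 16653 genes tested and for 5911 of the 7872 averaging 100 or more. Whether the difference of mutant replicate 2 bears on the histone values was not tested.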

How the data were processed

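Total RNA libraries (2 wild type, 2 npas4l bns297/bns297) were made from 10 ng with a SMARTer stranded total RNA kit and read as 75-base single reads, per the labels' protocols. The submitters' processing notes name STAR 2.4.0a, featureCounts 1.4.5-p1 and DESeq2, and the builds danRer10 and GRCz10. How strand and reads matching several genes were handled is not stated in the sources used. Values deposited by the authors have the unit score: whole numbers that behave like gene counts divided by a factor of each library, as read from regular gaps and doublings among them. Counts could not be recovered exactly, so no counting intervals are given. A test for raw counts was therefore not used.

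Values were transformed as log2(value + 1), rows with a mean of at least 10 kept, and groups compared with limma-trend (limma 3.58.1, R 4.3.3; 83.6 prior degrees of freedom), with Benjamini-Hochberg adjustment over all 16653 genes tested. The code was tested on simulated data. Nothing says that the libraries came from separate clutches, so the spread between them may be technical. Each p-value rests on a variance taken mostly from other genes of like level, and less from the row's own replicates. Sums were taken with pandas 2.3.3 and figures drawn with Matplotlib 3.10.9. Symbols are those of the table, in which 28 rows share hist1h4l and 9 share zgc:173552, so such rows are given by Ensembl identifier. No sequences were used.

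The members and lists were chosen with earlier results of these data known. The rule named members at an unadjusted p under 0.05, the 8 highest H3 and H4 rows, the 3 lowest and 3 highest log2 fold changes of each, every H3.3 row and hinfp, and from the other lists the 4 lowest p. Further rows were named after their values were seen. Alternatives were a pseudocount of 10, no filter, a mean of at least 50, another scaling, limma-voom, a replicate block and leaving out each library (rows tied in the remaining pair left out).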

Additional observations from a re-analysis of the deposited data

How the results depend on the processing

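The count of H3 and H4 rows called lower, 0 in the test as fixed, was 0 with a pseudocount of 10 and with limma-voom, 1 with no filter, 2 with a mean of at least 50, 3 on the alternative scale and 1 with the replicate block. Leaving out each library gave 0 to 9, the 9 without mutant replicate 1, in a fit that called 274 genes in all; the cause was not tested. The count called higher was 0 in every alternative run. The H3 sum over all 31 rows, -0.13 on the log2 scale, ran from -0.21 to -0.044 with each library left out. By run, with each library left out, H4 ran from -0.35 to -0.16 (second, chromosome 7), from -0.62 to -0.24 (the third, chromosome 7) and from -0.30 to -0.20 (second, chromosome 25), and H3 from -0.19 to -0.082 (first, chromosome 25) and from -0.14 to 0.13 (second, chromosome 25). Joining neighbours within 25 kb instead of 100 kb split the first run on chromosome 7. H4 was then at -0.34 in the piece that holds ENSDARG00000101249 and ENSDARG00000099920. ENSDARG00000105352, the H4 row with the highest mean value, fell into another piece, so this is not the value of the same run.

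The sign turned in 9 of the 37 members named by rule. On the alternative scale and with limma-voom, h3f3d gave 0.0028 and 0.012, h3f3b.1 row ENSDARG00000068434 gave 0.015 and 0.022, CR762436.2 gave 0.021 and 0.026, and FQ312024.2 gave 0.012 and 0.015. With each library left out, hinfp ran from -0.10 to 0.60, h3f3a from -0.14 to 0.20, h3f3d from -0.21 to 0.11, ENSDARG00000068434 from -0.16 to 0.080, ENSDARG00000089737 from -0.18 to 0.049, ENSDARG00000091525 from -0.046 to 0.17, ENSDARG00000096596 from -0.073 to 0.38, CR762436.2 from -0.10 to 0.03 and FQ312024.2 from -0.14 to 0.056. Deviations from the group mean, set side by side by replicate number, had a correlation of 0.009 over all genes tested and of 0.234 over the 63 H3 and H4 rows tested. With 2 pairs and no shared clutch in the labels, the libraries were not taken as pairs.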
